A study of Rattus norvegicus with 4 samples.

Results

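The genes described here are the Rab GTPases, the small GTPases that mark the membranes of the secretory and endocytic routes. Members were all deposited genes whose symbol is Rab followed by a number with or without a letter, counted once per gene identifier, which gave 48 genes of 14137 identifiers. They were measured by RNA-seq in neonatal rat ventricular myocytes (NRVMs), primary heart cells in culture that the labels list under cell line, with heart as the tissue and cardiomyocyte as the cell type. The Crat hairpin group (2 libraries, genotype KO in the labels) received lentivirus with an shRNA against Crat, the gene of carnitine acetyltransferase. The control hairpin group (2 libraries, genotype WT) received lentivirus with a control shRNA, so every culture was infected, and all were harvested after 5 days. The labels give neither the rat strain, the number of hairpins nor whether both libraries of each group are from different dishes. The p-values here rest on the spread between these libraries, shared over genes of similar level, and that spread may be technical.

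A Rab protein switches between a GDP-bound form held in the cytosol by a dissociation inhibitor and a GTP-bound form on a membrane. Exchange factors load GTP, GTPase-activating proteins end the active state, and effectors bound to the active form tether, move or fuse vesicles. Prenyl groups added by the Rab prenyltransferase anchor the protein, and in cardiomyocytes Rabs of the recycling route carry receptors, channels and the glucose transporter Glut4 to and from the surface.

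After Crat knockdown Rab transcripts changed in both directions, and most did not pass the test. Of the 45 members with enough signal to test, 6 rose (Rab4a, Rab4b, Rab1a, Rab5c, Rab18 and Rab5b) and 1 fell (Rab3d), and 38 passed in neither direction. The share that rose was 13.3% of the members, near the 12.6% of all 12949 tested genes that rose, and the share that fell was 2.22%, against 6.36% of all tested genes. Those that rose act at the endoplasmic reticulum and Golgi, the early endosome and in recycling, and the Rab that fell acts in regulated exocytosis. Each route holds too few genes to be set apart from the shares of all tested genes.

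The promoters of 6 of the 7 Rabs that passed the test are shown because members of 2 paralog pairs (Rab4a with Rab4b, Rab5b with Rab5c) passed together, with Rab1a and the oppositely moving Rab3d for comparison. Each sequence is the 250 bases before the RefSeq gene start on build GRCr8, read 5′ to 3′ on the gene's strand. Capitals mark the GC box (GGGCGG or its reverse complement CCGCCC) and the CCAAT box (CCAAT or its reverse complement ATTGG).
Rab1a, chr14:98623427-98623676, plus strand: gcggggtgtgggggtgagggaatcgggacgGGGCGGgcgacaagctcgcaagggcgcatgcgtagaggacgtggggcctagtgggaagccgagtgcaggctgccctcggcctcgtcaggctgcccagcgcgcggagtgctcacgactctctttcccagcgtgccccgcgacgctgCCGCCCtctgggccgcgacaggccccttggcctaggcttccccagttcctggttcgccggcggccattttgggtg
Rab5b, chr7:1712737-1712986, minus strand: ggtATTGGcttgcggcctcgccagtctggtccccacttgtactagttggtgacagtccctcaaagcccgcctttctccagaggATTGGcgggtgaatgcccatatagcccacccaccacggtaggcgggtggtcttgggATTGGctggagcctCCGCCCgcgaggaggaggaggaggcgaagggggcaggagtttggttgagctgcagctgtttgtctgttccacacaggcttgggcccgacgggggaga
Rab5c, chr10:86166450-86166699, minus strand: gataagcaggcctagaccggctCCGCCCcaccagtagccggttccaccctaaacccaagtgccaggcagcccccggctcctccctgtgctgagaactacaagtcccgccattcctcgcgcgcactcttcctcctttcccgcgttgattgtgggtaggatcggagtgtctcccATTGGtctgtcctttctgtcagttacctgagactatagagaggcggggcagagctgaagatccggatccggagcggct
Rab4a, chr19:68692831-68693080, plus strand: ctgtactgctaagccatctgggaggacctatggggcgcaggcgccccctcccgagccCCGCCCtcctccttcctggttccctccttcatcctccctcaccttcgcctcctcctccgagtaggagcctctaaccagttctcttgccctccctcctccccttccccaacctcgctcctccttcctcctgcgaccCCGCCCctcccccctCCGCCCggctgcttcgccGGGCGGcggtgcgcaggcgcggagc
Rab4b, chr1:91600338-91600587, minus strand: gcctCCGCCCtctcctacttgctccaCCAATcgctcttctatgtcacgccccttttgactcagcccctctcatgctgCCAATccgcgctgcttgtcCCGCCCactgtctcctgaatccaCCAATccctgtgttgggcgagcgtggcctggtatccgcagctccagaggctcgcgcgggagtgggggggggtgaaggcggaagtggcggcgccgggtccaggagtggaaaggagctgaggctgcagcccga
Rab3d, chr8:28725268-28725517, minus strand: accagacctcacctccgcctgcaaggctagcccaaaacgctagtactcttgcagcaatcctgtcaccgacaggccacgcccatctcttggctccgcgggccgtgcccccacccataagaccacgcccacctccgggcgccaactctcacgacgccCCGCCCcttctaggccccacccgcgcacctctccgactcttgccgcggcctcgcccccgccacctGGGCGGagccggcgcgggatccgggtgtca

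Windows were matched by symbol for 38 of the 48 members, and those without a match are Rab1b, Rab2a, Rab2b, Rab22a, Rab23, Rab24, Rab26, Rab33a, Rab36 and Rab38. Read on both strands, the GC box GGGCGG stood in 32 of the 38 members (84.2%), against 30.5% of all 33469 RefSeq promoter windows of that length. It was present in all 6 Rabs that rose and in Rab3d, and with only 1 Rab lower the directions cannot be compared. The CCAAT box, CCAAT, stood in 14 of 38 members (36.8%) and in 34% of all windows. It occurred 3 times each in Rab4b and Rab5b and 1 time in Rab5c, and not in Rab4a, Rab1a, Rab18 or Rab3d. None of the 38 held the TATA box TATAAA, which 12.9% of all windows held, or the cAMP response element TGACGTCA, which 1.59% held. None held the core of the interferon-stimulated response element, GAAANNGAAA, which 3.41% of all windows held. The Rab windows had a median of 63.2% G and C and 17 CpG dinucleotides, against 51.2% and 5 over all windows. All windows cover 27457 symbols, more than the 14137 identifiers measured here, and shares among expressed genes were not computed. No marked motif overlaps another in the printed windows, and a match says only that these letters are present.

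Depth differed greatly between the libraries, with 321516 and 1622998 reads in the Crat hairpin libraries and 23680064 and 1321735 in the control hairpin libraries. Values are RPM, reads scaled to the library total and not divided by gene length, so levels of different genes cannot be ranked. Crat hairpin replicate 1 had fewer than 10 reads for 21 of the 48 Rabs, a median of 13 and a highest of 117. Crat itself had 24.9 and 19.7 RPM in Crat hairpin cells, against 148 and 156 RPM in control hairpin cells, a log2 fold change of -2.72 ± 0.19 (SE; limma, adjusted p = 7.32e-06). Changes were tested with limma on log2(RPM + 1) over genes averaging at least 1 RPM, with p-values adjusted by Benjamini-Hochberg over all tested genes and called under 0.05. Fold changes are on that scale, which understates those of low genes. Each limma SE and p-value uses a variance drawn towards that of genes of similar level, not the spread of that gene's libraries alone. The fit gave all libraries equal weight despite their depths. Over all tested genes 1631 rose and 823 fell, with a median log2 fold change of 0.15, while median-of-ratios scaling moved the split to 1042 and 1252 and the median by -0.18.

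The cultures also differed in marker genes. Of the 10 tested cardiomyocyte markers 8 were lower and 1 higher, with summed levels of 11679 and 11702 RPM in Crat hairpin cells and 27582 and 27948 RPM in control hairpin cells (Actc1 alone had 1888 and 1752 RPM in Crat hairpin cells, against 7721 and 7728 RPM in control hairpin cells). In bulk RNA, fewer cells of a type and less RNA per cell cannot be told apart. All 11 tested interferon-response markers were higher, summing to 9004 and 9298 RPM in Crat hairpin cells, against 212 and 162 RPM in control hairpin cells. Fibroblast markers summed to 16898 and 17253 RPM in Crat hairpin cells and 22965 and 23947 RPM in control hairpin cells (3 of 10 higher, 5 lower), and smooth muscle and pericyte markers to 1900 and 1811 RPM in Crat hairpin cells, against 5225 and 5334 RPM in control hairpin cells (1 of 8 higher, 6 lower; Rgs5 was at 0 in Crat hairpin replicate 1). Endothelial markers (68.4 and 60.4 RPM in Crat hairpin cells and 52.9 and 62.8 RPM in control hairpin cells, 1 of 5 tested higher and 1 lower) and leukocyte markers (40.4 and 37.0 RPM in Crat hairpin cells and 36.9 and 37.1 RPM in control hairpin cells; 0 of 6 tested passed in limma, edgeR or DESeq2, and in limma 0 had an unadjusted p under 0.05) summed to far fewer reads, with Vwf at 0 in both Crat hairpin libraries and Cdh5, Csf1r and Cd3e at 0 in Crat hairpin replicate 1. The part of these markers and of depth in the Rab values below was not tested.

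Summed over the 48 members, Rab transcripts made up 3564 and 3335 RPM in Crat hairpin cells, against 2932 and 2788 RPM in control hairpin cells. This sum and those of each route below depend on scaling to library totals. Median-of-ratios and TMM scaling moved the all-gene median log2 fold change by -0.18 and -0.20, and the sums were not recomputed with them. In 23 of the 45 tested members both Crat hairpin libraries lay above both control hairpin libraries, which 39.1% of all tested genes did. In 9 both lay below, which 21.7% of all tested genes did, and in 13 the groups overlapped. The median log2 fold change of the members was 0.20, beside 0.15 over all tested genes, with 28 positive and 17 negative values.

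**Figure D1:**
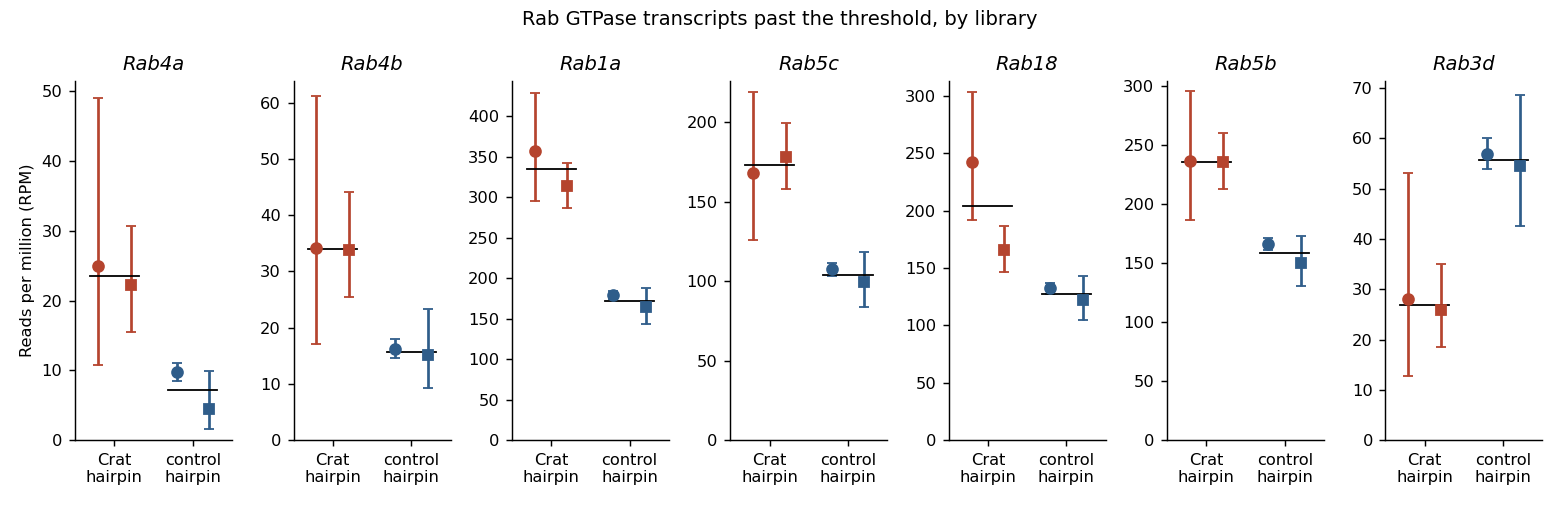
Level in RPM of the 7 Rab GTPases past the threshold in each Crat hairpin library (red) and control hairpin library (blue), with circles for replicate 1, squares for replicate 2, bars for the 95% Poisson interval of the count and lines for group means. Rab4a, Rab4b, Rab1a, Rab5c, Rab18 and Rab5b lie higher in both Crat hairpin libraries and Rab3d lower, and the intervals are widest in Crat hairpin replicate 1 and cover counting error only.

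Rabs of the endoplasmic reticulum and Golgi numbered 12, of which 10 were tested. Of these 2 rose (20%) and 0 fell, beside 12.6% and 6.36% of all tested genes. Rab1a, which carries cargo from the endoplasmic reticulum to the Golgi and acts early in autophagosome formation, had 358 and 314 RPM in Crat hairpin cells (115 and 509 reads), against 179 and 165 RPM in control hairpin cells (4249 and 218 reads). Every Crat hairpin value exceeded every control value. The means were 336 ± 31.2 RPM in Crat hairpin cells and 172 ± 10.3 RPM in control hairpin cells (SD, n = 2 each), a log2 fold change of 0.96 ± 0.11 (SE; limma, adjusted p = 2.1e-04).

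Rab18, which sits on the endoplasmic reticulum and lipid droplets, had 243 and 166 RPM in Crat hairpin cells, against 132 and 123 RPM in control hairpin cells. The Crat hairpin libraries lay above the controls but far from each other. Its log2 fold change was 0.65 ± 0.17 (SE, n = 2 each; limma, adjusted p = 0.0249), and it was 0.38 without Crat hairpin replicate 1 and 0.92 without Crat hairpin replicate 2.

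Rab1b, the near-identical partner of Rab1a, had no read in either Crat hairpin library, against 2.998 and 9.08 RPM (71 and 12 reads) in control hairpin libraries. The control libraries differ widely, and a floor of 3 reads over the Crat hairpin group puts the level at least 3.91-fold lower than the mean of the control libraries, or at least 2.15-fold lower than their pooled reads. Its fitted log2 fold change of -2.67 ± 0.86 did not pass (limma, adjusted p = 0.0591). Rab1b was called lower without the low-value filter, with median-of-ratios or TMM scaling and with edgeR. Reads of the pair can be assigned to either copy. Added together, Rab1a and Rab1b had 358 and 314 RPM in Crat hairpin cells and 182 and 174 RPM in control hairpin cells.

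Rab2a, which acts between the endoplasmic reticulum and Golgi and in lysosome fusion, had 149 and 133 RPM in Crat hairpin cells and 148 and 164 RPM in control hairpin cells, with the groups overlapping (log2 fold change -0.14 ± 0.13, SE; limma, adjusted p = 0.477). Rab6a, which drives traffic within and from the Golgi, had 152 and 142 RPM in Crat hairpin cells, against 177 and 170 RPM in control hairpin cells. It lay below the controls in both libraries, by less than the test required (-0.24 ± 0.11; limma, adjusted p = 0.189). It was called lower with median-of-ratios, TMM and quantile scaling, voom weights and edgeR. Its paralog Rab6b had 6.22 and 7.39 RPM in Crat hairpin cells and 5.15 and 3.03 RPM in control hairpin cells. The Golgi Rab Rab33b overlapped at 9.33 and 23.4 RPM in Crat hairpin cells, against 19.1 and 19.7 RPM in control hairpin cells. Rab30, also at the Golgi, had 46.7 and 44.4 RPM in Crat hairpin cells and 38.4 and 38.6 RPM in control hairpin cells. The groups overlapped for Rab2b (24.9 and 19.7 RPM in Crat hairpin cells, 22.97 and 24.97 RPM in control hairpin cells) and for Rab43 (3.11 and 16.6 RPM in Crat hairpin cells, 6.93 and 3.78 RPM in control hairpin cells), with Rab43 on 1 read in Crat hairpin replicate 1. The group summed to 992 and 869 RPM in Crat hairpin cells and 735 and 721 RPM in control hairpin cells, with a median log2 fold change of 0.06.

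Of the 6 early endosome Rabs analysed, both Rab5 paralogs among them rose (33.3% of the 6, beside 12.6% of all tested genes). Rab5 proteins recruit the effectors that tether and fuse endocytic vesicles. Rab5c had 168 and 178 RPM in Crat hairpin cells, against 108 and 99.9 RPM in control hairpin cells, and its log2 fold change was 0.73 ± 0.12 (SE, n = 2 each; limma, adjusted p = 0.00264). Rab5b had 236 and 235 RPM in Crat hairpin cells, against 166 and 151 RPM in control hairpin cells, with a log2 fold change of 0.57 ± 0.11 (SE, n = 2 each; limma, adjusted p = 0.00491). For both genes the Crat hairpin libraries lay close together and above the controls. Rab5b made up 58.5% and 56.9% of the summed reads of the pair in Crat hairpin cells and 60.7% and 60.1% in control hairpin cells, close in all 4 libraries. Rab5a is not analysed here.

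The other early endosome Rabs did not pass, and their values ran in both directions. Rab31, a Rab5 relative between the trans-Golgi and endosomes, had 180 and 210 RPM in Crat hairpin cells, against 214 and 221 RPM in control hairpin cells (log2 fold change -0.16 ± 0.11, SE; limma, adjusted p = 0.368). Rab22a, which acts on early and recycling endosomes, had 96.4 and 80.7 RPM in Crat hairpin cells, against 68.1 and 66.6 RPM in control hairpin cells. Rab21, which binds and carries integrins, had 40.4 and 40.7 RPM in Crat hairpin cells and 49.1 and 59.8 RPM in control hairpin cells (-0.41 ± 0.20; limma, adjusted p = 0.197). Rab20 overlapped between groups at 52.9 and 42.5 RPM in Crat hairpin cells, against 49.6 and 45.4 RPM in control hairpin cells. Over the 6 genes the median log2 fold change was 0.19.

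Of the 8 recycling Rabs, the paralogs Rab4a and Rab4b rose (25%, beside 12.6% of all tested genes). Both return receptors from early endosomes to the surface. Rab4a had 24.9 and 22.2 RPM in Crat hairpin cells (8 and 36 reads), against 9.76 and 4.54 RPM in control hairpin cells (231 and 6 reads). Both Crat hairpin values exceeded both control values, while the control libraries differed from each other and the second rests on 6 reads. The log2 fold change was 1.67 ± 0.41 (SE, n = 2 each; limma, adjusted p = 0.0203). Rab4b had 34.2 and 33.9 RPM (11 and 55 reads) in Crat hairpin cells, against 16.3 and 15.1 RPM (385 and 20 reads) in control hairpin cells, a log2 fold change of 1.07 ± 0.26 (SE, n = 2 each; limma, adjusted p = 0.0196). The pair summed to 59.1 and 56.1 RPM in Crat hairpin cells, against 26.0 and 19.7 RPM in control hairpin cells. Rab4a held 42.1% and 39.6% of the pair in Crat hairpin cells and 37.5% and 23.1% in control hairpin cells.

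The other recycling Rabs did not pass. Rab11a, which runs the perinuclear recycling endosome, had 140 and 126 RPM in Crat hairpin cells, against 115 and 120 RPM in control hairpin cells. Its paralog Rab11b had 106 and 136 RPM in Crat hairpin cells, against 105 and 90.8 RPM in control hairpin cells. Rab14, which links the trans-Golgi and endosomes, had 184 and 137 RPM in Crat hairpin cells, against 123 and 121 RPM in control hairpin cells (log2 fold change 0.38 ± 0.15, SE; limma, adjusted p = 0.117). Rab12, which acts in transferrin receptor turnover, had 180 and 151 RPM in Crat hairpin cells, against 133 and 117 RPM in control hairpin cells (0.40 ± 0.14; limma, adjusted p = 0.0704). In all 4 genes the Crat hairpin values lay above the controls, which held for 39.1% of all tested genes. For Rab11b the nearest values were 105.7 RPM in Crat hairpin replicate 1 and 105.1 RPM in control hairpin replicate 1. Rab11a changed sign in 5 of 19 alternative analyses. Rab35, which recycles cargo rapidly and steers actin, overlapped at 56.0 and 54.8 RPM in Crat hairpin cells, against 56.5 and 54.5 RPM in control hairpin cells. Rab15 had 15.6 and 17.3 RPM in Crat hairpin cells, below the 22.7 and 21.2 RPM of control hairpin cells. The 8 recycling Rabs had a median log2 fold change of 0.34 and summed to 740 and 678 RPM in Crat hairpin cells and 581 and 544 RPM in control hairpin cells.

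**Figure D2:**
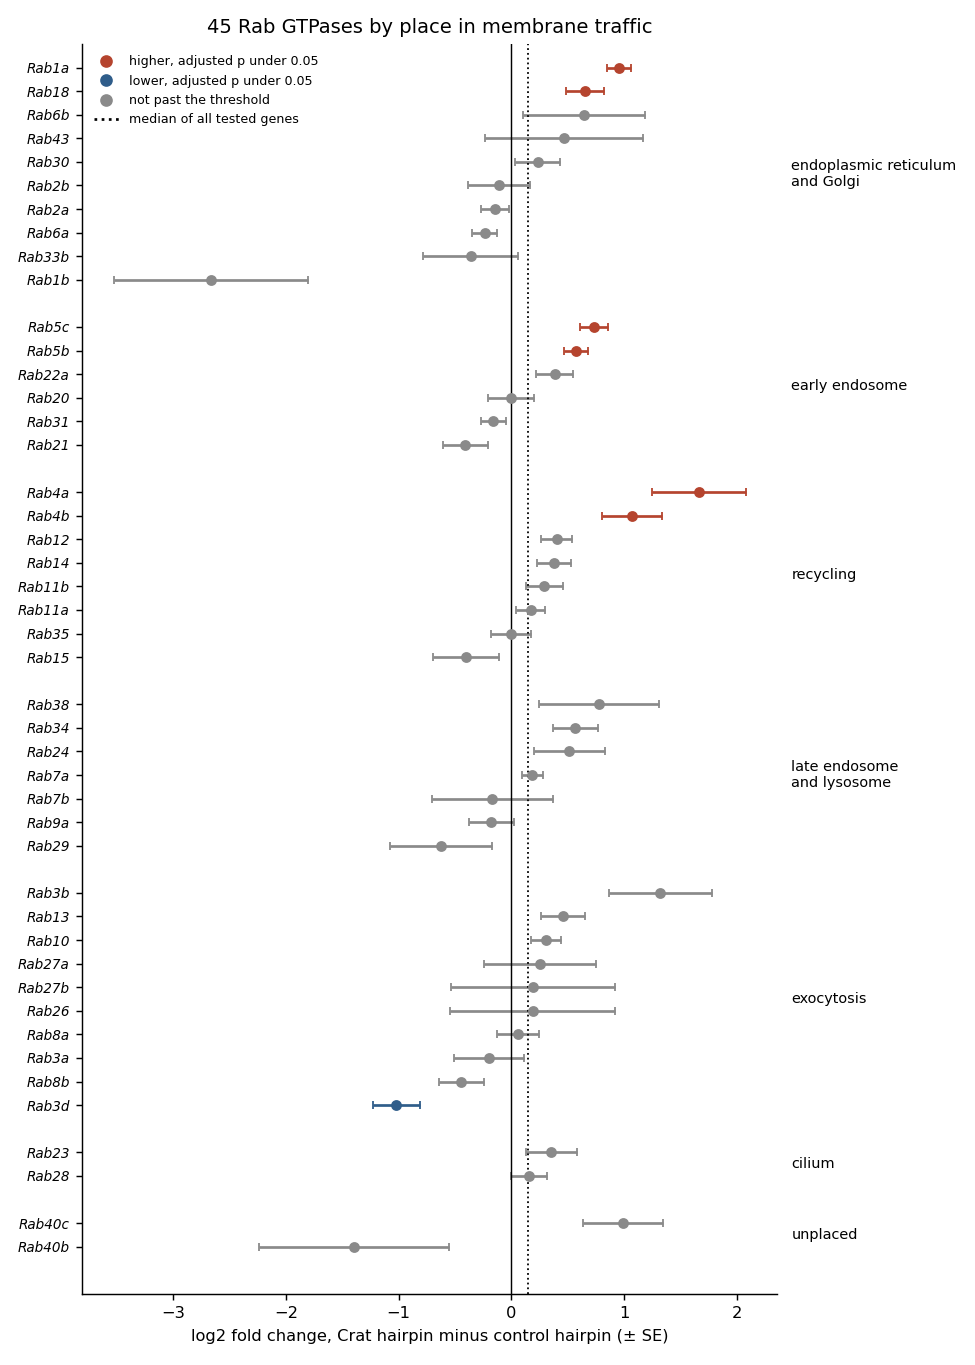
Log2 fold change (Crat hairpin minus control hairpin) with SE for the 45 tested Rab GTPases, grouped by place in membrane traffic; red and blue mark those past the threshold in the higher and lower direction and the dotted line the median of all tested genes, 0.15. The 6 Rabs that rose stand in the endoplasmic reticulum and Golgi, early endosome and recycling groups. These groups are too small to be set apart from all tested genes. The widest error bars belong to members with few reads, such as Rab1b and Rab40b.

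None of the 7 tested late endosome and lysosome Rabs passed in limma, where 12.6% of all tested genes rose and 6.36% fell. In limma 1 of the 7 had an unadjusted p under 0.05, and edgeR and DESeq2 on the recovered reads also called 0. Voom weights called Rab34 higher. Rab7a, which directs late endosomes and autophagosomes to lysosomes, had 364 and 344 RPM in Crat hairpin cells, against 327 and 295 RPM in control hairpin cells, with a log2 fold change of 0.19 ± 0.09 (SE, n = 2 each; limma, adjusted p = 0.195). The sign of this value turned under 4 alternative scalings or count models. Rab34, which positions lysosomes, had 77.8 and 58.5 RPM in Crat hairpin cells, against 47.3 and 43.1 RPM in control hairpin cells (0.57 ± 0.20; limma, adjusted p = 0.0822). Rab9a, which returns cargo from late endosomes to the Golgi, had 40.4 and 45.6 RPM in Crat hairpin cells and 52.2 and 45.4 RPM in control hairpin cells, with the groups overlapping. Rab24, an atypical Rab of autophagy, shares its identifier with Mxd3 in the deposited table and had 24.9 and 33.9 RPM in Crat hairpin cells, against 25.2 and 15.9 RPM in control hairpin cells, so its value cannot be given to either gene alone. Rab29, a binding partner of the kinase Lrrk2, had 6.22 and 16.0 RPM in Crat hairpin cells and 17.0 and 15.1 RPM in control hairpin cells. Rab38 and Rab7b had at most 9.33 RPM in any library. The group summed to 529 and 509 RPM in Crat hairpin cells and 484 and 423 RPM in control hairpin cells, with a median log2 fold change of 0.19.

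Of the 10 exocytosis Rabs, Rab3d fell (10%) and 0 rose, beside 6.36% and 12.6% of all tested genes. Rab3 proteins sit on secretory vesicles and act in their docking. Rab3d had 28.0 and 25.9 RPM in Crat hairpin cells (9 and 42 reads), against 56.9 and 54.5 RPM in control hairpin cells (1347 and 72 reads). The libraries of each group lay close together and the groups apart, with means of 26.9 ± 1.5 RPM in Crat hairpin cells and 55.7 ± 1.70 RPM in control hairpin cells (SD, n = 2 each), a log2 fold change of -1.02 ± 0.21 (SE; limma, adjusted p = 0.00786). Its paralog Rab3b ran the other way without passing, with 15.6 and 12.9 RPM in Crat hairpin cells, against 3.72 and 6.81 RPM in control hairpin cells (1.32 ± 0.45; limma, adjusted p = 0.0735). Rab3b was called higher with voom weights and with edgeR. Rab3a had 18.7 and 14.2 RPM in Crat hairpin cells, against 18.7 and 18.9 RPM in control hairpin cells. Rab3d held 45% and 48.8% of the reads of the 3 analysed paralogs in Crat hairpin cells and 71.7% and 67.9% in control hairpin cells. Rab3b held 25% and 24.4% in Crat hairpin cells and 4.68% and 8.49% in control hairpin cells. These are shares of reads, not of molecules, because gene length was not divided out.

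The Rabs that carry vesicles to the plasma membrane did not pass. Rab8a, which acts in surface delivery and cilium growth, overlapped at 62.2 and 59.1 RPM in Crat hairpin cells and 51.7 and 65.1 RPM in control hairpin cells. Its paralog Rab8b lay below the controls in both libraries, with 37.3 and 35.7 RPM in Crat hairpin cells, against 51.6 and 48.4 RPM in control hairpin cells (log2 fold change -0.44 ± 0.20, SE; limma, adjusted p = 0.162). Rab8b was called lower with quantile scaling, voom weights and edgeR. Rab10, which takes Glut4 vesicles to the surface in fat cells, had 131 and 126 RPM in Crat hairpin cells, against 110 and 97.6 RPM in control hairpin cells. Rab13, a Rab of cell junctions, had 56.0 and 52.4 RPM in Crat hairpin cells, against 42.1 and 36.3 RPM in control hairpin cells. Rab27a, Rab27b and Rab26, Rabs of secretory granules, had at most 6.78 RPM in any library. The group summed to 361 and 336 RPM in Crat hairpin cells and 345 and 336 RPM in control hairpin cells.

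Outside these routes stand 2 cilium Rabs, and neither passed. Rab23, an inhibitor of Hedgehog signalling, had 46.7 and 57.3 RPM in Crat hairpin cells, against 46.3 and 34.8 RPM in control hairpin cells. Rab28 had 77.8 and 72.7 RPM in Crat hairpin cells, against 67.6 and 67.3 RPM in control hairpin cells. Rab40c and Rab40b, which carry a SOCS box and join ubiquitin ligases, ran in opposite directions without passing. Rab40c had 43.5 and 21.6 RPM in Crat hairpin cells and 14.7 and 15.1 RPM in control hairpin cells (0.99 ± 0.36; limma, adjusted p = 0.0852), and Rab40b had 0 and 2.46 RPM in Crat hairpin cells, against 4.01 and 3.78 RPM in control hairpin cells (-1.40 ± 0.84; limma, adjusted p = 0.298). Rab33a, Rab36 and Rab9b had means under 1 RPM and were not tested. Rab33a had 0 and 1.85 RPM in Crat hairpin cells, against 1.18 and 0 RPM in control hairpin cells. Rab36 had 0 and 1.23 RPM in Crat hairpin cells, against 1.48 and 0 RPM in control hairpin cells. Rab9b had no read in Crat hairpin libraries and 1.69 and 0.757 RPM in control hairpin libraries, and the floor of 3 reads over the Crat hairpin group, 1.54 RPM, exceeds that control mean, so no fold is given.

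The 7 calls differed in how firmly they held. The groups of these 7 did not overlap, so only other scalings, voom weights, edgeR, DESeq2 and thinning could turn a sign. None of the 7 changed sign in any of 19 alternative analyses. Rab1a passed in 17 of them, Rab5c and Rab3d in 15, Rab4a in 13, Rab5b in 12, and Rab18 and Rab4b in 11. Several of the 19 change only the pseudocount, the filter or the prior, so passing them adds little. Those that leave out 1 library keep 1 library in that group, which then has no spread of its own. They are counted in the passes here and below. Rab4a moved most on leaving out a control library, to 2.14 without replicate 1, the deepest, and 1.19 without replicate 2. Rab18 and Rab4b did not pass with TMM or quantile scaling or with DESeq2. No Rab passed in limma without a variance trend, where 8 had an unadjusted p under 0.05, or after thinning all libraries to 321516 reads, where 10 did. Among the other Rabs given a fold change that did not pass, Rab2a, Rab21 and Rab31 were called lower with edgeR and Rab40c was called higher with voom weights. Rab1a (adjusted p 9.91e-05), Rab3d (0.0129) and Rab2a (0.0395, lower) are the 3 Rabs under the threshold in the authors' deposited table. In that table Rab5c stood at 0.0716, Rab4a at 0.151, Rab5b at 0.219, and Rab4b and Rab18 at 0.302. An exact permutation test over 2 against 2 libraries cannot go below 0.333.

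**Figure D3:**
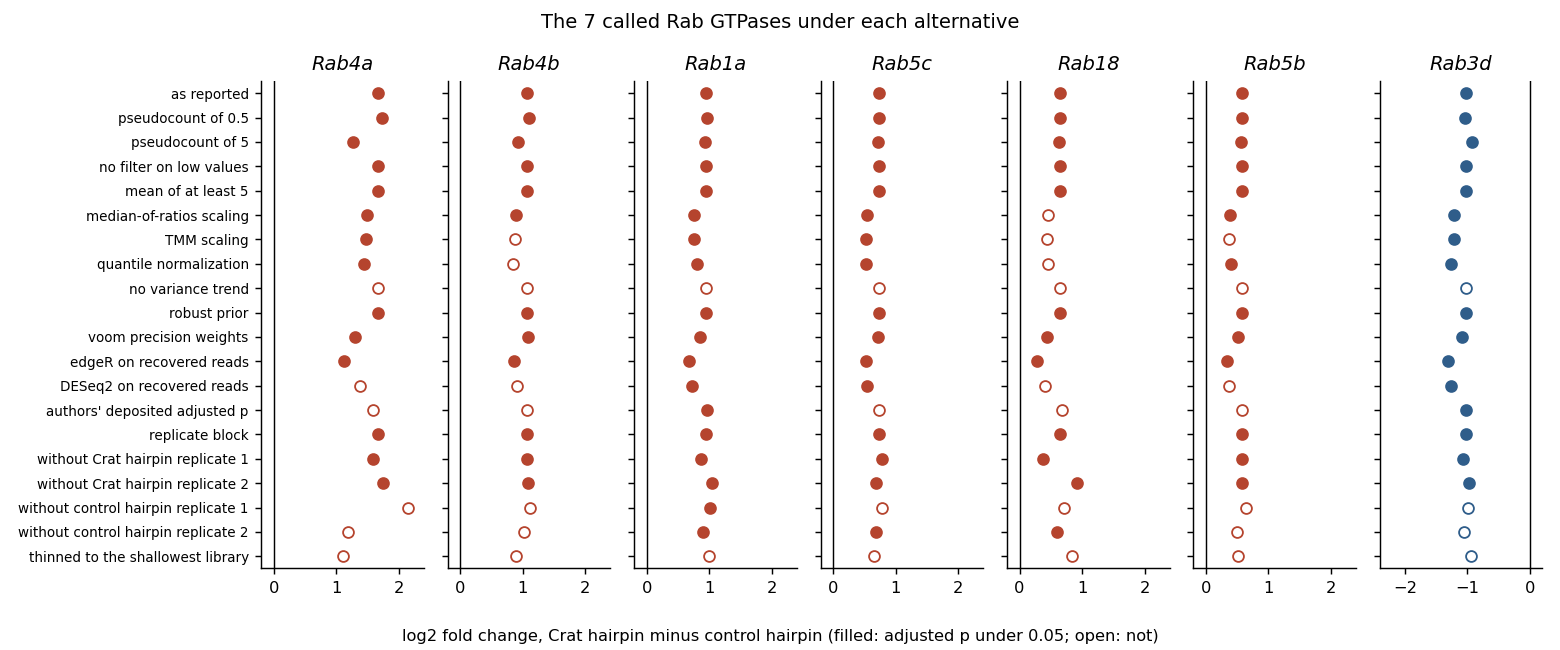
Log2 fold change (Crat hairpin minus control hairpin) of the 7 Rab GTPases past the threshold in the reported analysis and in each of 19 alternatives, with filled circles where the adjusted p was under 0.05 and open circles where it was not. No point crosses 0, though only other scalings, voom weights, edgeR, DESeq2 or thinning could have moved one across. The circles without a variance trend and after thinning are open for all 7 genes.

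The proteins that act on Rabs were read from 4 lists of prenylation and recycling factors, exchange factors, GTPase-activating proteins and effectors, and of the 151 tested 15 rose (9.93%) and 6 fell (3.97%), beside 12.6% and 6.36% of all tested genes. Among 15 prenylation and recycling factors 1 rose (6.67%) and 0 fell, beside the same 12.6% and 6.36%. Rabggtb, the beta subunit of the Rab prenyltransferase, had 146 and 119 RPM in Crat hairpin cells, against 99.9 and 86.3 RPM in control hairpin cells (log2 fold change 0.50 ± 0.15, SE; limma, adjusted p = 0.0489). This call lay at the threshold and passed in 6 of 19 alternative analyses. The dissociation inhibitor Gdi2, which holds GDP-bound Rabs in the cytosol, had 286 and 286 RPM in Crat hairpin cells, against 279 and 259 RPM in control hairpin cells. It did not pass (0.09 ± 0.09; limma, adjusted p = 0.537).

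Among 47 exchange factors 5 rose (10.6%) and 1 fell (2.13%), beside 12.6% and 6.36% of all tested genes. Dennd1b, an exchange factor of Rab35, fell to 9.33 and 17.9 RPM in Crat hairpin cells, against 40.2 and 34.8 RPM in control hairpin cells (-1.46 ± 0.34; limma, adjusted p = 0.0148). Rab35 itself did not pass. Dennd2b, an exchange factor of Rab13, had 267 and 343 RPM in Crat hairpin cells, against 135 and 129 RPM in control hairpin cells (1.19 ± 0.13; limma, adjusted p = 1.9e-04), and Hps4, a subunit of the exchange factor of Rab32 and Rab38, had 40.4 and 19.1 RPM in Crat hairpin cells, against 11.3 and 8.32 RPM in control hairpin cells (1.43 ± 0.40; limma, adjusted p = 0.0347). Dennd11 had 24.9 and 20.3 RPM in Crat hairpin cells, against 10.7 and 9.08 RPM in control hairpin cells (1.11 ± 0.33; limma, adjusted p = 0.0451). Dennd5a and Sbf1 were the other exchange factors that rose. Dennd2b passed in 17 of the 19 alternative analyses and Dennd1b in 15, while Hps4 and Dennd11 passed in 8 each.

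Among 34 GTPase-activating proteins 2 rose (5.88%) and 0 fell in limma, beside 12.6% and 6.36% of all tested genes. In limma 0 had an unadjusted p under 0.05 in the lower direction, while edgeR called 3 lower and DESeq2 called 0. Tbc1d20, the GTPase-activating protein of Rab1, had 115 and 99.2 RPM in Crat hairpin cells, against 38.0 and 50.7 RPM in control hairpin cells (1.26 ± 0.19; limma, adjusted p = 0.0014). Tbc1d14, which binds Rab11 and acts in autophagy, had 124 and 118 RPM in Crat hairpin cells, against 82.4 and 80.2 RPM in control hairpin cells (0.57 ± 0.14; limma, adjusted p = 0.0167). Tbc1d20 passed in 16 of the 19 alternative analyses and Tbc1d14 in 10. Rab1a and its GTPase-activating protein both rose, and Rab11a and Rab11b did not pass.

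Among 55 effectors 7 rose (12.7%) and 5 fell (9.09%), beside 12.6% and 6.36% of all tested genes. Rab11fip2, which joins Rab11 vesicles to myosin Vb, had 96.4 and 59.1 RPM in Crat hairpin cells, against 22.1 and 23.5 RPM in control hairpin cells (1.69 ± 0.26; limma, adjusted p = 0.0015). Micall2, an effector of Rab13, rose (90.2 and 65.3 RPM in Crat hairpin cells, against 32.6 and 37.8 RPM in control hairpin cells; 1.11 ± 0.21; limma, adjusted p = 0.006), while Micall1, an effector of Rab8 and Rab35, fell to 84.0 and 56.7 RPM in Crat hairpin cells, against 129 and 145 RPM in control hairpin cells (-0.98 ± 0.19; limma, adjusted p = 0.0063). Ehbp1, an effector of Rab8 and Rab10, fell to 31.1 and 51.8 RPM in Crat hairpin cells, against 79.9 and 84.0 RPM in control hairpin cells (-1.01 ± 0.24; limma, adjusted p = 0.0162). Rab11fip2 and Micall1 passed in 16 of the 19 alternative analyses, and Micall2 and Ehbp1 in 15. Ankfy1, Golgb1, Inpp5b, Optn and Plekhm2 also rose, and Bicd2, Ehbp1l1 and Fyco1 also fell. Plekhm2 is best known as a partner of the lysosomal GTPase Arl8.

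The Arf and Arl GTPases, the neighbouring small GTPase family of membrane traffic, were measured in the same libraries. Of 20 tested, 3 rose (15%) and 1 fell (5%), beside 12.6% and 6.36% of all tested genes, with a median log2 fold change of 0.04 beside 0.20 for the Rabs, and the difference between the families was not tested. Arl8a, which moves lysosomes outward, had 205 and 129 RPM in Crat hairpin cells, against 75.9 and 65.8 RPM in control hairpin cells (1.19 ± 0.21; limma, adjusted p = 0.0033). Arl8b also rose, as did the identifier that Arf3 shares with Fkbp11. Arf1, which recruits coats at the Golgi, fell to 283 and 337 RPM in Crat hairpin cells, against 442 and 433 RPM in control hairpin cells (-0.50 ± 0.10; limma, adjusted p = 0.0064). Arl8a and Arf1 each passed in 16 of the 19 alternative analyses.

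**Figure D4:**
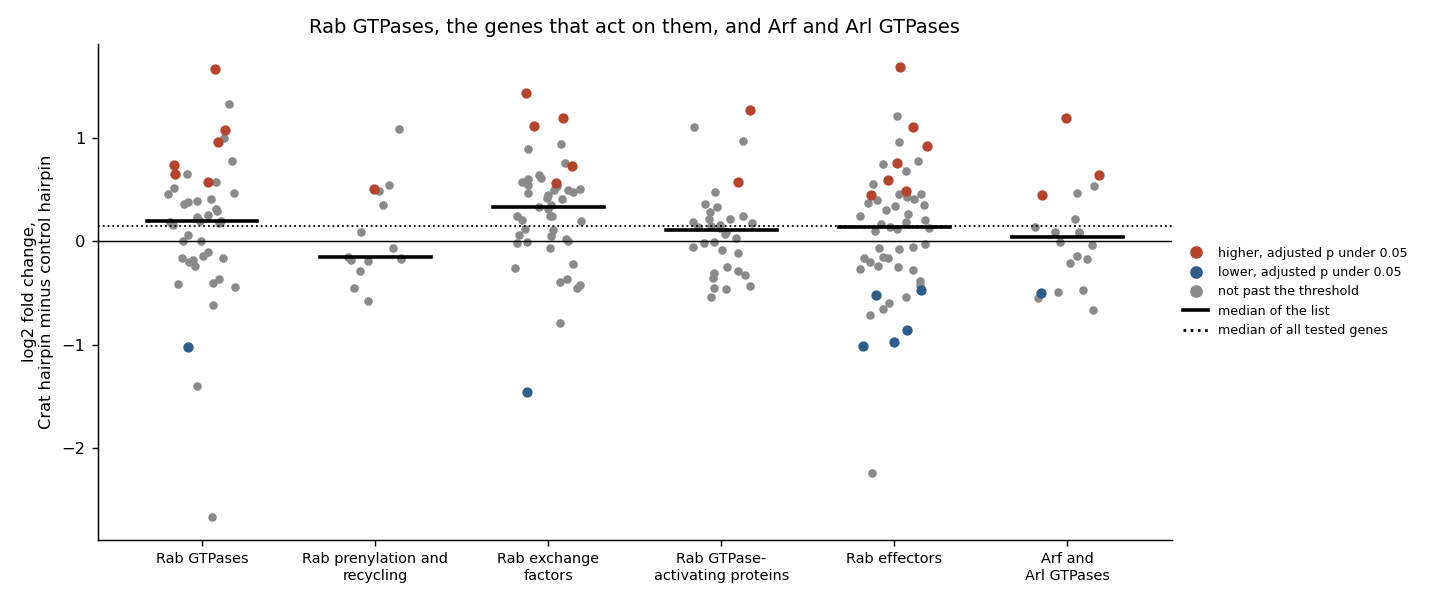
Log2 fold change (Crat hairpin minus control hairpin) of the 45 Rab GTPases, the 151 genes that act on them in 4 lists and the 20 Arf and Arl GTPases, with red and blue points past the threshold and grey points not, black lines for list medians and a dotted line for the median of all tested genes. The list medians lie between -0.16 and 0.33, around the 0.15 of all tested genes, and points past the threshold stand on both sides of 0 in the Rab, exchange factor, effector and Arf lists.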

How the data were processed

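Total RNA of 4 NRVM libraries was sequenced on an Illumina instrument, and the submitters' processing notes name kallisto, DESeq2 and the build mRatBN7.2, without versions. The authors deposited 1 table of 14318 rows (14137 gene identifiers) holding a value per library, group means, a p-value and its adjusted p-value per gene. The file headers call the deposited library columns TPM, but in every library 100% of values are whole multiples, within 0.02, of what 1 read is worth, so the deposited signal is RPM with no length division. The step gave back the reads.

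Identifiers on several rows (140) were used once. Of 58 Rab symbols in RefSeq, 10 are not analysed here, so some families lack a paralog. limma 3.58.1 (R 4.3.3) with a mean-variance trend and no covariate was run on log2(RPM + 1) of the 12949 genes averaging 1 RPM or more. The Benjamini-Hochberg threshold was 0.05. edgeR 4.0.16 and DESeq2 1.42.0 were run on the recovered reads as alternatives, because the files proved to hold whole reads.

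Replicates differed by more than counting noise, with a chi-square of 1.30 per degree of freedom in Crat hairpin libraries and 1.49 in control hairpin libraries, so no file was a copy of another. This does not show that the libraries came from separate cultures. Poisson intervals (95%) and the floor of 3 reads cover counting error only. The named genes are every Rab past the threshold, the 6 others with the highest mean, any below the filter, and up to 4 genes past the threshold from each machinery list (in a list with under 2 such genes, the 2 with the highest mean), except 1 gene that is not reported here. Rab1b, Rab3b, Rab8b, Rab21, Rab34, Rab40b and Rab40c were given a fold change after their values were seen. The members and gene lists were chosen with earlier results of these data known.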

Additional observations from a re-analysis of the deposited data

How the results depend on the processing

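The 7 Rab calls kept their direction in 19 of 19 alternatives, though only other scalings, voom, edgeR, DESeq2 and thinning could have turned it. The counts depend on the method. Of the 38 Rabs not called, 16 changed sign in at least 1 alternative. Rabs called higher (6 as reported) numbered 3 with TMM scaling, 0 without a variance trend, 10 with voom weights and 2 with DESeq2. They numbered 1 by the authors' deposited adjusted p and 0 after thinning. Rabs called lower (1 as reported) numbered 2 without a filter, 3 with median-of-ratios, TMM or quantile scaling, and 0 without a variance trend. They numbered 3 with voom, 7 with edgeR, 2 by the authors' deposited adjusted p and 0 after thinning. Counts on leaving out 1 library are not given here or below, because 1 group then has no replicate. At an unadjusted p under 0.05, 9 of the 38 uncalled Rabs passed as reported.

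Over all genes, 1631 were higher as reported, 1042 with median-of-ratios, 1003 with TMM and 953 with quantile scaling, 266 without a variance trend, 3487 with voom, 748 with DESeq2, 694 by the authors' deposited adjusted p and 75 after thinning, with 425 to 3632 on leaving out 1 library. Lower genes numbered 823 as reported, 1252 with median-of-ratios and 1281 with TMM scaling, 79 without a variance trend, 1249 with voom, 2065 with edgeR and 43 after thinning, with 176 to 2620 on leaving out 1 library. Genes acting on Rabs called higher (15) numbered 7 with median-of-ratios or TMM, 6 with quantile scaling, 0 without a variance trend, 40 with voom, 5 with DESeq2, 4 by the authors' deposited adjusted p and 0 after thinning, with 2 to 39 on leaving out 1 library. Those called lower (6) numbered 10 with median-of-ratios, 11 with TMM, 10 with quantile scaling, 0 without a variance trend, 11 with voom, 17 with edgeR and 0 after thinning, with 1 to 25 on leaving out 1 library. Relative to the reported scaling, the all-gene median log2 fold change moved by -0.18 with median-of-ratios, -0.20 with TMM, -0.18 with quantile scaling and -0.16 with edgeR. The cause of the other differences was not tested.

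Among the genes given a fold change, 4 uncalled ones changed sign. The log2 fold change of Rab7a was -0.0049 with median-of-ratios, -0.018 with TMM, -0.067 with edgeR and -0.030 with DESeq2. That of Gdi2 was -0.10 with median-of-ratios, -0.11 with TMM, -0.046 with quantile scaling, -0.14 with edgeR, -0.11 with DESeq2 and -0.043 after thinning. After thinning Rab2a stood at 0.046 and Rab31 at 0.069. The replicate block gave 7 Rabs higher, adding Rab12, and 1 lower, with 1701 genes higher and 895 lower overall and 20 and 6 genes acting on Rabs. Deviations of same-numbered libraries from their group means correlated at 0.00612 over genes. Counting noise at these depths can hide a shared culture or batch, so this does not decide whether same-numbered libraries are paired.

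Depth limits the low members most, since the shallowest library held 321516 reads, where 1 read is worth 3.11 RPM.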
